A study of Mus musculus with 6 samples.

Results

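The kallikreins described here are 9 serine protease genes, Klk1, Klk5, Klk6, Klk7, Klk8, Klk10, Klk11, Klk13 and Klk14, and with them stands Spink5, which encodes LEKTI, the inhibitor of the epidermal kallikreins. These 10 genes were taken by name from the 56941 genes of the count table. Klk1 was chosen by its log2 fold change in the same comparison, as one of the largest rises, and its difference is therefore given without a test, while the other 9 entered as kallikreins of the skin and their inhibitor. Total RNA was sequenced from CD34+/α6-integrin+ hair follicle stem cells (HFSCs), sorted by FACS from the dorsal skin of female mice at postnatal day (PD) 68, in 3 WT and 3 Dab2-cKO replicates by their labels. By the labels, both groups carried Dab2 fl/fl on the strain B6;129S4-Dab2tm1Cpr/J and both received tamoxifen intraperitoneally at 75 mg/kg for 5 days. They differed in the Cre driven by the keratin 14 promoter, which is active in basal keratinocytes throughout the epidermis and not in HFSCs alone, and which was absent in WT and present in Dab2-cKO.

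Kallikreins are secreted as inactive precursors and cut proteins after activation by other proteases. In the upper epidermis they cut the desmosomal proteins that hold corneocytes together, so that cells are shed at the surface, and LEKTI restrains them within the granular layer and the stratum corneum. Loss of SPINK5 in humans causes Netherton syndrome, a disease of a fragile and inflamed skin barrier. Klk1, tissue kallikrein, belongs to a branch best known from salivary gland and kidney, where it releases kinins from kininogen.

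The libraries held between 7040032 and 11696457 counts. Values are given as normalized counts, which put each library on the scale of the average library after the TMM scaling of edgeR. Dab2, the gene to be deleted, had 339, 332 and 309 normalized counts in the WT libraries and 1434, 1300 and 1390 in the libraries labelled Dab2-cKO, which goes against the label (log2 fold change 2.08, SE 0.08, edgeR adjusted p = 3.04e-34). Count columns carrying the name FL-FL were taken as Dab2-cKO from the title of the series, although both groups have floxed alleles, and every direction below depends on this. The bulge markers Cd34 and Itga6 were present in every library, at 510 ± 53.2 and 960 ± 41.5 normalized counts in WT (SD, n = 3) and 1780 ± 35.6 and 1409 ± 47.8 in the libraries labelled Dab2-cKO. The bulge list had no single direction. Of its 11 markers, 7 rose and 4 fell, where 16.8% of all genes tested rose and 11.5% fell. Those that fell were Sox9, Lhx2, Foxc1 and Tbx1. Their mean normalized counts were 966, 348, 615 and 388 in WT and 355, 129, 308 and 96.6 in the libraries labelled Dab2-cKO. Other cell types were present too. The 12 inner root sheath and hair shaft markers took 2.98% to 3.28% of counts in WT and 0.0213% to 0.0229% in the libraries labelled Dab2-cKO, and all 12 fell. The 6 fibroblast markers took 1.29% to 1.44% and 3.17% to 3.46%, and all 6 rose.

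The sequences below show how closely the kallikreins resemble each other in the reference genome, which bears on whether their reads can be told apart. Each is 102 bases of the last coding exon, beginning at the glycine codon before the aspartate and active-site serine of the protease, on the plus strand of chromosome 7 in GRCm39, read by the GENCODE M39 annotation. Capitals mark the bases that differ from Klk1.
Klk1, chr7:43878838-43878939: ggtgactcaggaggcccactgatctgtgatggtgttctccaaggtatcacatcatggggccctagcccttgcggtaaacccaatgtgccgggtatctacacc
Klk1b5, chr7:43869923-43870024: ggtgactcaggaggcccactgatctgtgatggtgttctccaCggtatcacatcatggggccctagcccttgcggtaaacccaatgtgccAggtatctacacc
Klk1b21, chr7:43755803-43755904: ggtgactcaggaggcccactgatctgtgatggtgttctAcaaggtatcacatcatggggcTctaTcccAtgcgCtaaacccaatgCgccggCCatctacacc
Klk1b24, chr7:43841675-43841776: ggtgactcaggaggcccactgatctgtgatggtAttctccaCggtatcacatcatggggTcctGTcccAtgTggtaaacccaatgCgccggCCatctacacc
Klk1b27, chr7:43705935-43706036: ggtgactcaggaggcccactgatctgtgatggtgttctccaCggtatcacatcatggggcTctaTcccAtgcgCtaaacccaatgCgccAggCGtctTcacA
Klk5, chr7:43500143-43500244: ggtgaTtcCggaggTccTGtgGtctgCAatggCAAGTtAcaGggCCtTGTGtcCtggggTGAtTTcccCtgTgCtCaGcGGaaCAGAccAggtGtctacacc
Klk7, chr7:43464721-43464822: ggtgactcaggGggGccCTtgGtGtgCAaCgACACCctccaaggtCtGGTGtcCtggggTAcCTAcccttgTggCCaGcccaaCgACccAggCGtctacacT

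Klk1b5 differed from Klk1 at 2 of the 102 bases, Klk1b21 at 8, Klk1b24 at 10 and Klk1b27 at 11, whereas Klk7 differed at 36 and Klk5 at 40. Over the whole coding sequence, Klk1 was 95.1% identical to Klk1b5, 87.1% to Klk1b21, 60.1% to Klk5 and 59.6% to Klk7. Of the 1577 windows of 100 bases in the transcripts of Klk1, 52 (3.3%) also occurred in another kallikrein gene, 48 of them in Klk1b5. None of the Klk1 windows occurred in Klk1b21, Klk1b24 or Klk1b27, and none of 150 bases, the length of a read, was shared by any pair of the 37 kallikrein genes. The kallikreins of the skin shared no window of 100 bases with any other kallikrein gene. The counting over near-identical stretches is not stated, so values of Klk1 and the Klk1b genes carry that uncertainty, over a small part of their length by these windows. The windows came from the reference genome alone, and variants carried by the strain of these mice were not examined.

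Klk1 was barely detected in WT, with 15, 19 and 14 raw counts, and reached 696, 593 and 631 in the libraries labelled Dab2-cKO. In normalized counts it stood at 16.7, 17.2 and 11.96 in WT and at 664, 682 and 696 in the libraries labelled Dab2-cKO. The groups were far apart and each was tight, with means of 15.3 ± 2.88 and 681 ± 16.4 (SD, n = 3). The log2 fold change was 5.48 (SE 0.15), a 44.6-fold difference, and 4.76 and 2.94 when the libraries were scaled to keratins instead (Krt14 with Krt5, and Krt10 with Krt1). Among the 10846 genes with a mean of at least 100 normalized counts, Klk1 ranked 4 by log2 fold change, below Gm15772 at 5.97 and above Ifit1, an interferon-stimulated gene, at 5.14. These values chose the gene and are a description only.

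**Figure D1:**
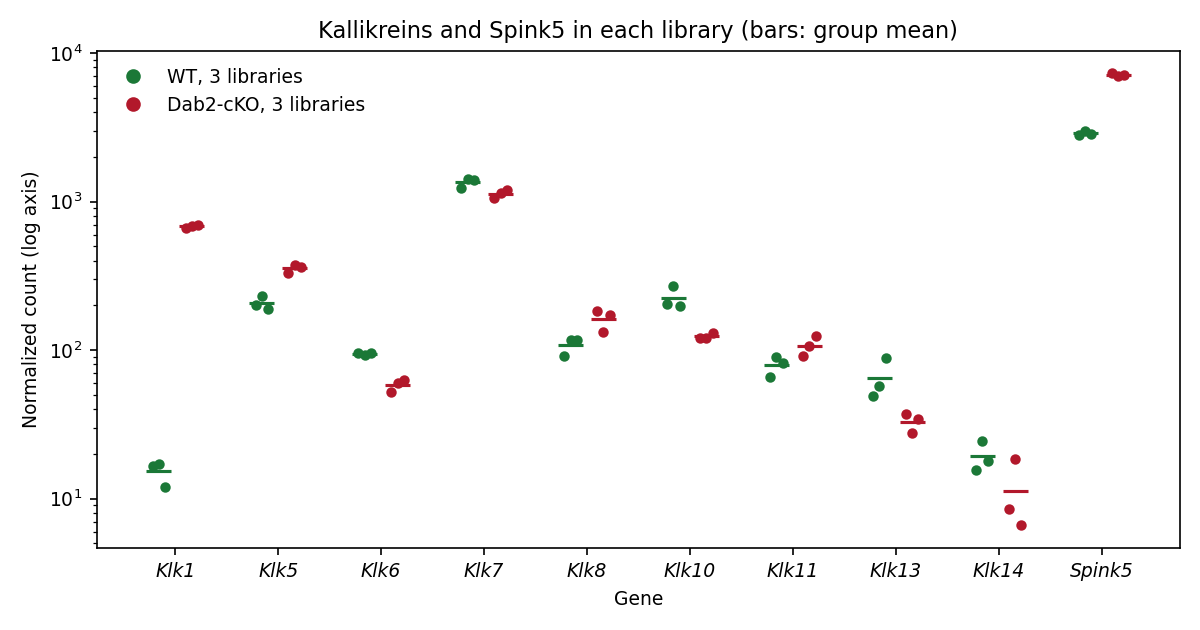
Normalized counts (log axis) of the 9 kallikreins and Spink5 in the 3 WT libraries (green) and the 3 libraries labelled Dab2-cKO (red), with a bar at each group mean. Klk1 spans from 11.96 to 696, Spink5 lies highest in each group, and the groups overlap only for Klk14.

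Spink5 rose. It had 2805, 2981 and 2855 normalized counts in WT and 7295, 6971 and 7122 in the libraries labelled Dab2-cKO, so that no library of a group came near the other group. The means were 2880 ± 90.9 and 7129 ± 162 (SD, n = 3), and the log2 fold change was 1.31 (SE 0.07, 95% interval 1.17 to 1.44, edgeR adjusted p = 8.11e-27), against 0.57 when scaled to Krt14 and Krt5 and -1.25 when scaled to Krt10 and Krt1. Keratin 10 and keratin 1, made by differentiating epidermal cells, themselves rose by more than Spink5, with log2 fold changes of 2.37 (SE 0.07, edgeR adjusted p = 1.21e-40) and 2.99 (SE 0.07, edgeR adjusted p = 8.81e-46). Of the 17 markers of differentiated interfollicular epidermis, 13 rose and 3 fell, where 16.8% of all genes tested rose and 11.5% fell. Together the 17 took 0.417% to 0.447% of counts in WT and 1.02% to 1.07% in the libraries labelled Dab2-cKO. The part of these cells in the changes of Spink5 and the kallikreins was not tested. In such bulk samples, a change in the number of cells that use a gene and a change in its RNA per cell cannot be told apart.

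Of the 9 genes that were tested, 4 fell, 3 rose and 2 did not pass the threshold of an adjusted p under 0.05, where 28.2% of the 32149 genes tested in all passed, 11.5% lower and 16.8% higher. Of all genes that passed, 59.4% were higher, against 43.5% with upper-quartile scaling and 19.4% with library size only. The groups did not overlap for 8 of the 9, 4 lower and 4 higher, beside 38.3% of all genes tested, 17.7% lower and 20.6% higher. The median log2 fold change over the 10 genes was 0.08, and over all genes tested -0.02. The kallikreins of the skin thus moved in opposite directions, with Klk5 and Klk8 up and Klk6, Klk7, Klk10 and Klk13 down, a split in which Klk5 and Klk8 turned to lower values under scaling to Krt10 and Krt1, and Klk8 also under scaling to Krt14 and Krt5. With library size only, which moved the median of all genes to -0.45, the calls of Klk5, Klk6 and Klk7 stood at log2 fold changes of 0.35, -1.12 and -0.69.

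Klk5 and Klk7 are the proteases of corneodesmosome breakdown, and Klk5 also activates Klk7. Klk5 rose from 201, 232 and 190 normalized counts in WT to 333, 373 and 360 in the libraries labelled Dab2-cKO. The lowest of the latter lay well above the highest WT value, and the log2 fold change was 0.77 (SE 0.11, 95% interval 0.55 to 0.99, edgeR adjusted p = 1.77e-08), against 0.04 when scaled to Krt14 and Krt5 and -1.78 when scaled to Krt10 and Krt1. Klk7, the most abundant of the kallikreins in normalized counts, fell from 1243, 1414 and 1394 in WT to 1056, 1135 and 1194. The groups lay close together without overlap (log2 fold change -0.26, SE 0.07, 95% interval -0.41 to -0.12, edgeR adjusted p = 0.00307). The ratio of Klk5 to Klk7 was 0.162, 0.164 and 0.136 in WT and 0.315, 0.329 and 0.301 in the libraries labelled Dab2-cKO, a description that does not depend on the scaling of the libraries.

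Klk6 and Klk8 are also made in brain, where Klk8 is known as neuropsin. Klk6 fell from 95.8, 92.1 and 95.7 normalized counts in WT to 52.5, 59.8 and 62.9 (log2 fold change -0.70, SE 0.20, edgeR adjusted p = 0.00359). Klk8 rose from 91.3, 117 and 117 to 184, 132 and 172 (log2 fold change 0.58, SE 0.15, edgeR adjusted p = 0.00168), and its call was lost with library size only (0.15, edgeR adjusted p = 0.423, where its alternatives ranged from 0.00036 to 0.423), and its direction turned with scaling to Krt14 and Krt5 (-0.15) or to Krt10 and Krt1 (-1.97). The groups did not overlap for either gene, though the nearest Klk8 values of the groups, 117 and 132, were close. Of the exon bases of Klk8, 29.1% overlap the antisense gene 2310002F09Rik, and whether reads were counted by strand is not stated.

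Klk10 and Klk13, secreted by stratified epithelia, fell. Klk10 had 205, 271 and 199 normalized counts in WT and 121, 120 and 131 in the libraries labelled Dab2-cKO (log2 fold change -0.86, SE 0.14, edgeR adjusted p = 3.05e-07). Klk13 had 49.0, 56.9 and 88.0 in WT and 37.2, 27.6 and 34.2 (log2 fold change -0.97, SE 0.26, edgeR adjusted p = 0.00173). Neither pair of groups overlapped, but WT replicate 3 lay far above the other WT libraries for Klk13. Without it the log2 fold change of Klk13 was -0.67 and the call was lost (edgeR adjusted p = 0.106, where its alternatives ranged from 4.47e-06 to 0.106).

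Klk11 and Klk14 did not pass the threshold. Klk11 had 65.7, 89.4 and 82.0 normalized counts in WT and 91.6, 107 and 124 in the libraries labelled Dab2-cKO. These groups touched without overlapping, with a log2 fold change of 0.43 (SE 0.18, 95% interval 0.07 to 0.79, edgeR adjusted p = 0.068), and -0.29 and -2.11 under scaling to Krt14 and Krt5 and to Krt10 and Krt1. Without Dab2-cKO replicate 1 the log2 fold change was 0.52 and the gene passed (edgeR adjusted p = 0.0455, where its alternatives ranged from 0.0455 to 0.981). Klk14, an activator of the protease-activated receptor PAR2, had 15.6, 24.4 and 17.9 in WT and 8.58, 18.4 and 6.62, so that the groups overlapped (log2 fold change -0.80, SE 0.46, 95% interval -1.72 to 0.12, edgeR adjusted p = 0.216). With library size only Klk14 passed as lower (-1.22, edgeR adjusted p = 0.0275, where its alternatives ranged from 0.0275 to 0.528). Part of the exon bases of both genes, 9.81% of Klk11 and 22.6% of Klk14, overlap 2310002F09Rik.

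To compare levels between genes, normalized counts were divided by the length of the exon union in kb. Chemosensory receptor genes, taken here as largely unused in skin, served as background, and 95% of these 1521 genes lay under 11.8 per kb. In WT, Klk7 stood highest at 703 ± 48.8 per kb (SD, n = 3), followed by Spink5 at 602 ± 19.0 and Klk5 at 155 ± 16.3. Klk8 at 69.1 ± 9.52 and Klk10 at 60.9 ± 10.8 differed by less than their spread, as did Klk10 and Klk6 at 58.0 ± 1.29, and Klk11 came next at 38.4 ± 5.89. Klk13 at 20.1 ± 6.41 and Klk14 at 15.2 ± 3.58 differed by less than their spread, as did Klk14 and Klk1 at 13.3 ± 2.51, and these genes stood just above the background. In the libraries labelled Dab2-cKO, the order per kb opened with Spink5 at 1490 ± 33.9, followed by Klk1 at 594 ± 14.3 and Klk7 at 587 ± 36.2, which were within their spread. Klk5 at 265 ± 15.2, Klk8 at 104 ± 17.2 and Klk11 at 52.2 ± 7.79 came next, and Klk6 at 35.9 ± 3.30 and Klk10 at 33.6 ± 1.72 were within their spread. Klk13 at 10.3 ± 1.52 and Klk14 at 8.82 ± 4.97 were under the background limit there, so that their lower values are near the level that reads on these receptor genes reach.

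**Figure D2:**
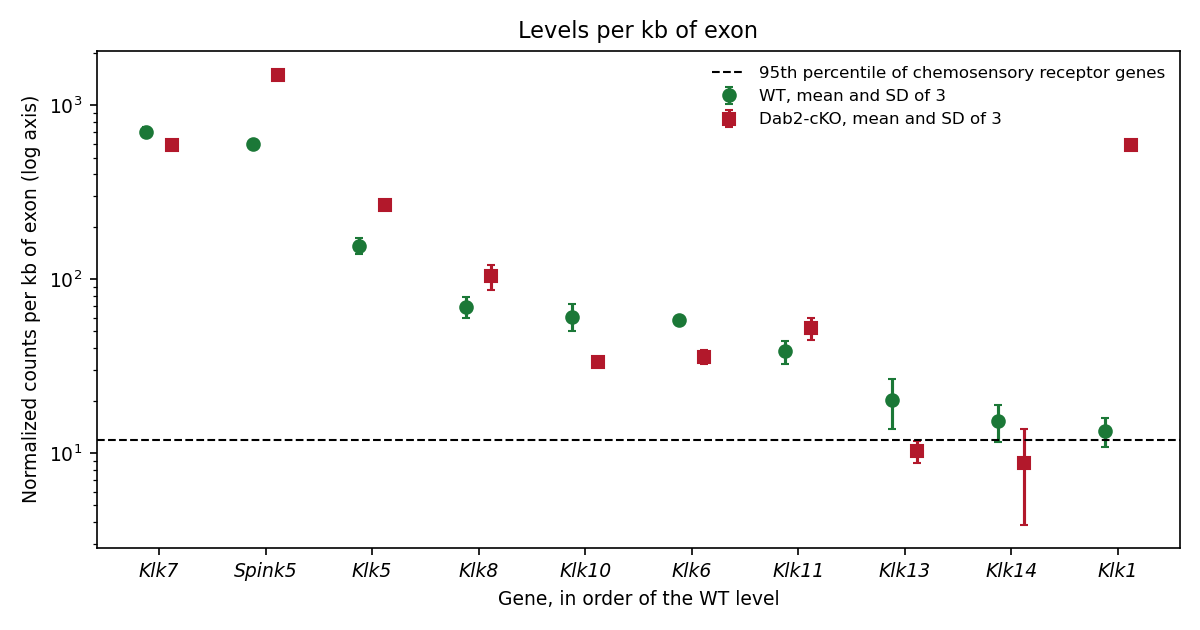
Normalized counts per kb of exon (log axis), mean with SD of 3 libraries, in WT (green circles) and in the libraries labelled Dab2-cKO (red squares), with genes in the order of their WT level. The dashed line is the limit of 11.8 per kb under which 95% of chemosensory receptor genes lie, and Klk1 moves from 13.3 to 594.

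Spink5 and the kallikreins were set against each other by ratios of normalized counts within each library, without a test. These counts were not divided by exon length, which is 4.785 kb for Spink5 and 1.921 kb for Klk7. The ratios and shares below therefore compare libraries and do not give the relative levels of genes. Per kb, Klk7 at 703 stood above Spink5 at 602 in WT, and at 587 below Spink5 at 1490 in the libraries labelled Dab2-cKO. The normalized counts of the 8 kallikreins other than Klk1 summed to 2149 ± 168 in WT and 1980 ± 101 in the libraries labelled Dab2-cKO (SD, n = 3). Spink5 relative to that sum was 1.43, 1.30 and 1.31 in WT and 3.87, 3.53 and 3.42, and these values did not overlap. Relative to Klk7, Spink5 was at 2.14 ± 0.108 in WT and 6.34 ± 0.503 in the libraries labelled Dab2-cKO, and relative to Klk5 at 13.9 ± 1.10 and 20.1 ± 1.64. Klk7 made up 62.9% ± 1.18 of the summed counts in WT and 56.9% ± 0.79 in the libraries labelled Dab2-cKO. Counted with Klk1, the share of Klk1 among the 9 kallikreins went from 0.71% ± 0.15 to 25.6% ± 0.52. Relative to Krt14, Spink5 was at 0.452 ± 0.0189 in WT and 0.622 ± 0.028 in the libraries labelled Dab2-cKO, and relative to Krt10 at 0.725 ± 0.0418 and 0.345 ± 0.00943, so that its order depended on the keratin. Klk7 was lower in the latter libraries relative to either, at 0.212 ± 0.00295 and 0.0983 ± 0.00502 for Krt14, and at 0.339 ± 0.0124 and 0.0546 ± 0.00301 for Krt10.

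**Figure D3:**
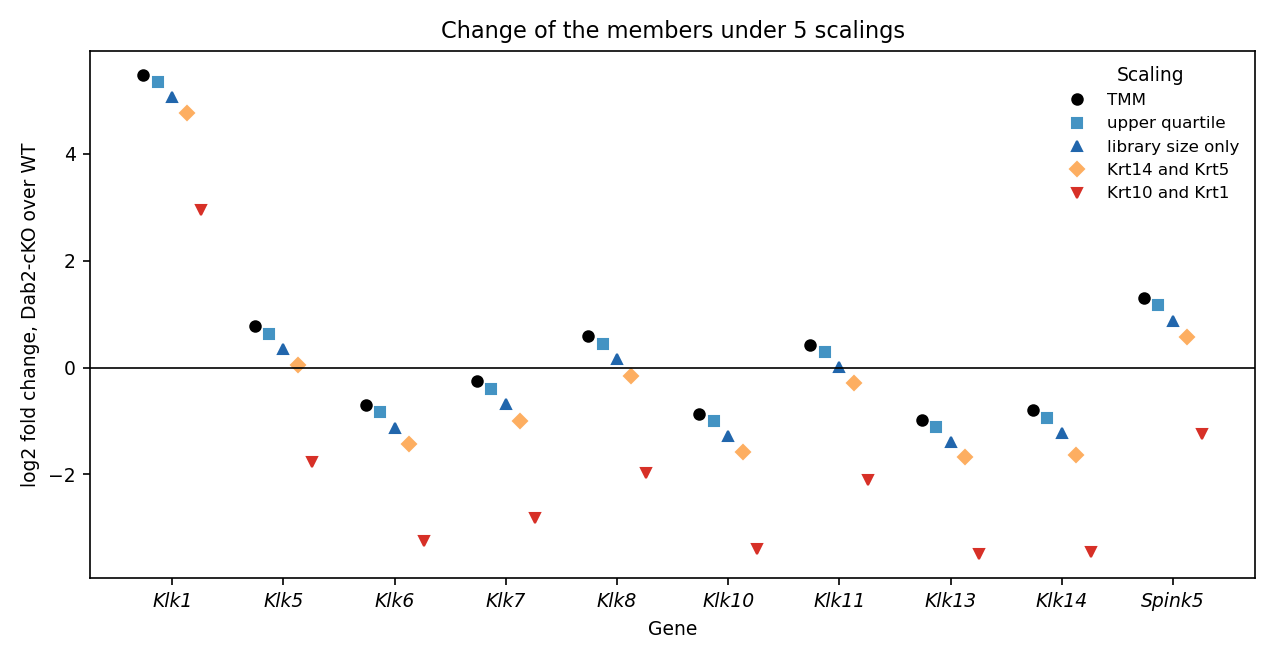
log2 fold change of each gene, libraries labelled Dab2-cKO over WT, under TMM scaling (black) and 4 others. Klk1 stays above 0 and Klk6, Klk7, Klk10, Klk13 and Klk14 below 0 in all 5, whereas Klk5 and Spink5 turn to -1.78 and -1.25 with Krt10 and Krt1, and Klk8 and Klk11 turn with either keratin pair.

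All kallikreins lie in a single cluster, at chr7:43339842-43879048 in GRCm39, which spans 539.2 kb and holds 37 kallikrein genes of the table, 26 of them protein-coding and 11 pseudogenes, all on the plus strand. Spink5 lies on chromosome 18. Klk14 opens the cluster at chr7:43339842-43344960, the other kallikreins of the skin follow, the Klk1b genes fill the far part, and Klk1 closes it at chr7:43874725-43879048. Along the skin kallikreins, Klk13 and Klk10, which fell, were followed by Klk8, which rose, Klk7 and Klk6, which fell, and Klk5, which rose (Klk8 and Klk5 turned by scaling to Krt10 and Krt1, and Klk8 by Krt14 and Krt5 as well). The start of Klk7 lies 414.0 kb from that of Klk1, and the start of Klk1b5, the nearest neighbour, 9.4 kb from it.

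Among the other kallikrein genes, 16 were tested, of which 3 rose, where 16.8% of all genes did, and 13 did not pass. The genes that rose were Klk1b21, Klk1b27 and Klk1b24, close paralogs of Klk1 that encode glandular kallikreins. Klk1b21 had 9, 10 and 23 raw counts in WT and 217, 140 and 152 in the libraries labelled Dab2-cKO. In normalized counts this was 12.9 ± 5.87 and 179 ± 24.8 (SD, n = 3), with a log2 fold change of 3.75 (SE 0.23, edgeR adjusted p = 4.09e-23), against 1.32 when scaled to Krt10 and Krt1. Klk1b27 rose from 12.9 ± 4.85 to 87.9 ± 8.98 (log2 fold change 2.79, SE 0.29, edgeR adjusted p = 2.84e-13), against 0.28 when scaled to Krt10 and Krt1. Klk1b24 rose from 17.1 ± 3.86 to 80.1 ± 10.8 (log2 fold change 2.23, SE 0.27, edgeR adjusted p = 1.67e-10), against -0.31 when scaled to Krt10 and Krt1. The groups did not overlap for any of the 3 genes.

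The other 10 protein-coding Klk1b genes did not pass. Their log2 fold changes lay between -0.76 and 0.76, their lowest edgeR adjusted p was 0.0761, and their raw counts ranged from 3 to 45. That lowest value belonged to Klk1b1, which passed as higher without WT replicate 1 (log2 fold change 1.01, edgeR adjusted p = 0.036). Klk1b5, the nearest to Klk1 in position and in sequence, had a log2 fold change of 0.66 (SE 0.48, edgeR adjusted p = 0.359). Klk1b3 and Klk1b4, which encode the gamma and alpha subunits of the nerve growth factor complex, had -0.18 (SE 0.49, edgeR adjusted p = 0.851) and -0.58 (SE 0.40, edgeR adjusted p = 0.323), and Klk1b4 passed as lower with library size only (-1.01, edgeR adjusted p = 0.0346). The 3 genes that rose were more alike than any of them was to Klk1, with 93.5% to 94.0% identity in their coding sequences. Of the remaining kallikreins, Klk4, the enamel protease, had -0.996 (SE 0.43, edgeR adjusted p = 0.0713). Klk4 passed as lower with upper-quartile scaling (-1.14, edgeR adjusted p = 0.033) and library size only (-1.42, edgeR adjusted p = 0.00493). Klk9 had 0.48 (SE 0.39, edgeR adjusted p = 0.427) and Klk12 0.39 (SE 0.36, edgeR adjusted p = 0.492). Of the exon bases of Klk9, 68.4% overlap the antisense gene 2310002F09Rik, and whether reads were counted by strand is not stated. Of the 11 pseudogenes, with 0 to 33 raw counts, 3 were tested, with a lowest edgeR adjusted p of 0.594.

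**Figure D4:**
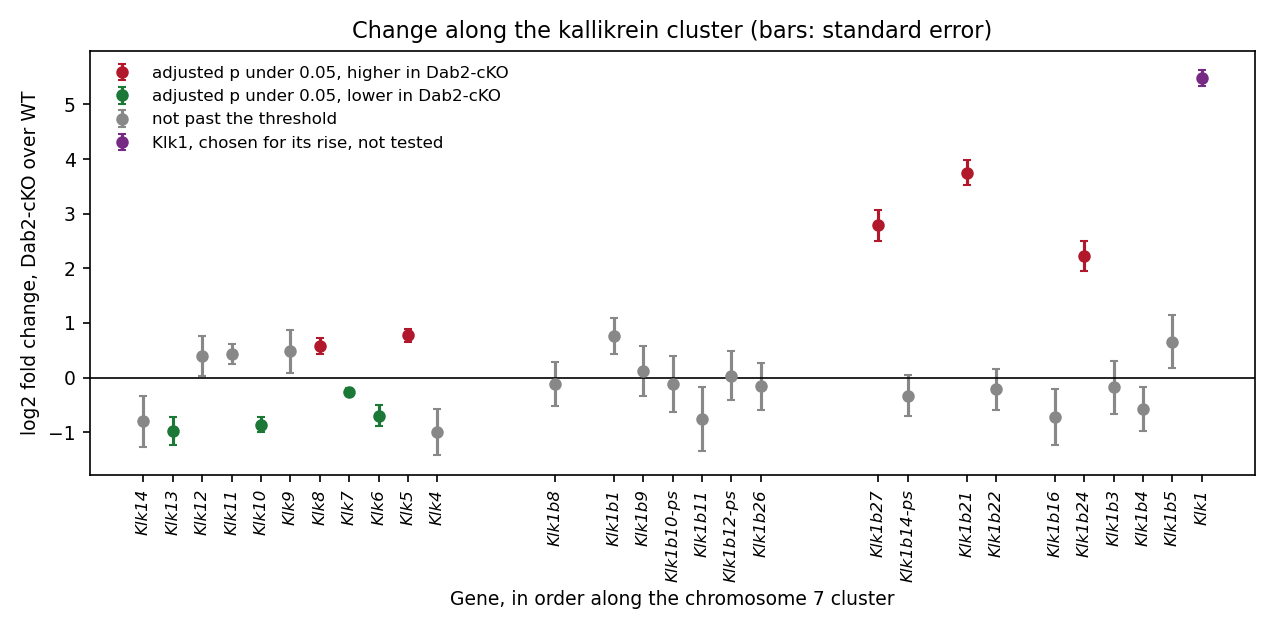
log2 fold change with its standard error, libraries labelled Dab2-cKO over WT, of the tested kallikrein genes in their order along the chromosome 7 cluster. Klk1 at 5.48 and the paralogs Klk1b21, Klk1b27 and Klk1b24 at 3.75, 2.79 and 2.23 stand apart from their neighbours, and the kallikreins of the skin lie between -0.97 and 0.77. Scaling to Krt10 and Krt1 turned Klk1b24, Klk5 and Klk8, which passed, to lower values. It also turned Klk11, Klk9, Klk12, Klk1b1, Klk1b5 and Klk1b9, which did not pass. Scaling to Krt14 and Krt5 turned Klk8, Klk11, Klk9, Klk12, Klk1b5 and Klk1b9.

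The 100 bases before the start of the canonical transcript are shown for Klk1b21, Klk1b24 and Klk1b27, which rose, and for Klk1b9, which did not pass. They are on the plus strand of chromosome 7 in GRCm39, and capitals mark TTTAAA. The stretch of Klk1b21 holds none, but it ends at bases that in Klk1b24 lie before the motif. Bases past the start were not searched.
Klk1b21, chr7:43751610-43751709: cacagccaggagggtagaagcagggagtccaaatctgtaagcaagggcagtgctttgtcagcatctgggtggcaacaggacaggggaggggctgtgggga
Klk1b24, chr7:43837560-43837659: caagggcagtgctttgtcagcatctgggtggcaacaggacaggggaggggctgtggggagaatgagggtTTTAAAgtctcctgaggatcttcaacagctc
Klk1b27, chr7:43701614-43701713: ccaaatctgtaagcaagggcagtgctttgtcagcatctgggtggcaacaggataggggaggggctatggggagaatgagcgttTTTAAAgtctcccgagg
Klk1b9, chr7:43625385-43625484: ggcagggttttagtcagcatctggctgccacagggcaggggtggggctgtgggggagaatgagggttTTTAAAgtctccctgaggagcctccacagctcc

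Within 250 bases before the start, the letters TTTAAA, sought on both strands (the motif reads the same on each), occurred in 8 of the 26 kallikrein promoters and in 11.9% of 21603 promoters of the annotation. They occurred in Klk1b24 and Klk1b27, and as well in Klk1b1, Klk1b3, Klk1b8, Klk1b9, Klk1b11 and Klk1b22, which did not pass. Before the annotated starts of Klk1b21 and Klk1 they did not occur, and a motif past those starts would have been missed. TATAAA occurred in 1 of the 26, Klk1b16, and in 11.9% of all promoters. Over the aligned promoter bases, Klk1b21, Klk1b24 and Klk1b27 were 91.9% to 97.6% identical to each other. They were 76.6% to 79.8% identical to Klk1, which rose more than they did. Their identity to the 10 Klk1b genes that did not pass was 46.8% to 84.9%. The lowest of these values was that of Klk1b27 with Klk1b16 and the highest that of Klk1b27 with Klk1b9. Values up to 62.6% came from Klk1b5, Klk1b16 and Klk1b26, and the other genes that did not pass gave 77.3% to 84.9%. Any part of these stretches in the rise was not tested.

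Other inhibitors of skin proteases changed in both directions. Of 11 tested, 4 rose, 2 fell and 5 did not pass, where 16.8% of all genes tested rose and 11.5% fell. Their median log2 fold change was -0.16, and the 4 that rose turned to lower values under scaling to Krt10 and Krt1. Spint1, which encodes HAI-1, the inhibitor of matriptase, fell from 516, 583 and 549 normalized counts in WT to 159, 182 and 163 in the libraries labelled Dab2-cKO (log2 fold change -1.71, SE 0.10, edgeR adjusted p = 2.67e-23). Serpina12, which encodes vaspin, an inhibitor of Klk7, rose from 226, 237 and 230 to 705, 726 and 735 (log2 fold change 1.64, SE 0.09, edgeR adjusted p = 1.93e-25). Neither gene had overlapping groups. Serpina3n and Serpine2, serpins of secreted proteases, had log2 fold changes of 0.96 (SE 0.12, edgeR adjusted p = 1.18e-10) and 0.98 (SE 0.13, edgeR adjusted p = 2.41e-09), and Spint2, the relative of Spint1, -0.39 (SE 0.09, edgeR adjusted p = 3.37e-04). Cst6, cystatin M/E, an inhibitor of cathepsins, had 0.37 (SE 0.08, edgeR adjusted p = 7.33e-05), against -0.05 with library size only, where it did not pass (edgeR adjusted p = 0.541).

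Of 14 other proteases of the epidermis, 7 fell, 4 rose and 3 did not pass, where 11.5% of all genes tested fell and 16.8% rose. Their median log2 fold change was -0.34, and the 4 that rose turned under scaling to Krt10 and Krt1. Plau (0.34, edgeR adjusted p = 0.0464), Plat (-0.34, edgeR adjusted p = 0.0329) and Mep1a (-0.73, edgeR adjusted p = 0.042) were named for their unstable calls after their values were seen. Plau kept its call only in the alternatives without WT replicate 1 or without Dab2-cKO replicate 1. It lost the call with DESeq2, every other scaling and filter, and the replicate block. DESeq2 ended the calls of Plat and Mep1a too. Over the alternatives, the list held 5 to 8 genes that fell and 2 to 4 that rose. Leaving out 1 library ended the call of Plau for WT replicates 2 and 3 and Dab2-cKO replicates 2 and 3 (0.22 to 0.37), that of Plat for replicates 1 and 2 of each group (-0.33 to -0.29), and that of Mep1a for all but Dab2-cKO replicate 1 (-0.80 to -0.55). The lowest count of genes that rose came with library size only, where Plau (-0.09) and Ctsd turned. St14, matriptase, which can activate kallikrein precursors, fell from 1541, 1799 and 1722 normalized counts to 464, 475 and 486 (log2 fold change -1.83, SE 0.08, edgeR adjusted p = 4.71e-32). The ratio of St14 to Spint1 was 3.07 ± 0.076 in WT and 2.83 ± 0.193 in the libraries labelled Dab2-cKO (SD, n = 3), close but not overlapping. Asprv1, a protease that processes profilaggrin, rose (0.78, SE 0.07, edgeR adjusted p = 5.83e-15), and Casp14, which takes part in filaggrin breakdown, fell (-0.39, SE 0.09, edgeR adjusted p = 3.76e-04). The lysosomal proteases Ctsl and Ctsd had -0.39 (SE 0.07, edgeR adjusted p = 6.96e-06) and 0.31 (SE 0.07, edgeR adjusted p = 3.22e-04), with -0.12 for Ctsd and no call when library size only was used (edgeR adjusted p = 0.09). Tmprss13 had -0.39 (SE 0.11, edgeR adjusted p = 0.00391), and -0.29 without WT replicate 3, where it did not pass (edgeR adjusted p = 0.088).

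Among 15 substrates and receptors of kallikreins, 2 rose, 2 fell and 11 did not pass, with a median log2 fold change of -0.12. Of all genes tested, 28.2% passed, 16.8% higher and 11.5% lower. Flg, filaggrin, rose from 1657 ± 73.1 to 2995 ± 66.0 normalized counts (log2 fold change 0.85, SE 0.07, edgeR adjusted p = 2.8e-17), and Tslp, a cytokine made by keratinocytes, from 19.7 ± 7.68 to 45.1 ± 8.78 (1.20, SE 0.32, edgeR adjusted p = 0.0019), though both turned under scaling to Krt10 and Krt1, and Tslp lost its call with library size only (0.77, edgeR adjusted p = 0.0516). Dsc1, a desmocollin of the cornified layers, fell (-0.42, SE 0.07, edgeR adjusted p = 5.02e-07). F2rl1, which encodes PAR2, fell as well (-0.36, SE 0.11, edgeR adjusted p = 0.00929). The call of F2rl1 was lost without WT replicate 3 (-0.30, edgeR adjusted p = 0.0971) and without Dab2-cKO replicate 1 (-0.31, edgeR adjusted p = 0.057). Without WT replicate 3 the list had 1 gene that fell, and without WT replicate 2 it had 4 that rose, Il1b (0.95, edgeR adjusted p = 0.0403) and Cdsn (0.24, edgeR adjusted p = 0.00656) being added. The corneodesmosomal proteins Dsg1a and Cdsn, with log2 fold changes of 0.03 (SE 0.07, edgeR adjusted p = 0.819) and 0.17 (SE 0.07, edgeR adjusted p = 0.0766), did not pass, nor did the kininogen genes Kng1 (-0.28, SE 0.27, edgeR adjusted p = 0.527) and Kng2 (0.33, SE 0.29, edgeR adjusted p = 0.467). The list had 9 genes that fell with library size only, Dsg1a, Cdsn and Kng1 (-0.40, -0.26 and -0.71) among them, and 4 with upper-quartile scaling or a mean count of at least 50. Dsg1a, Cdsn, Il1b, Kng1 and Kng2 were named after their values were seen. Flg, Cdsn, Asprv1 and Casp14 are also among the markers of differentiated epidermis described above.

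**Figure D5:**
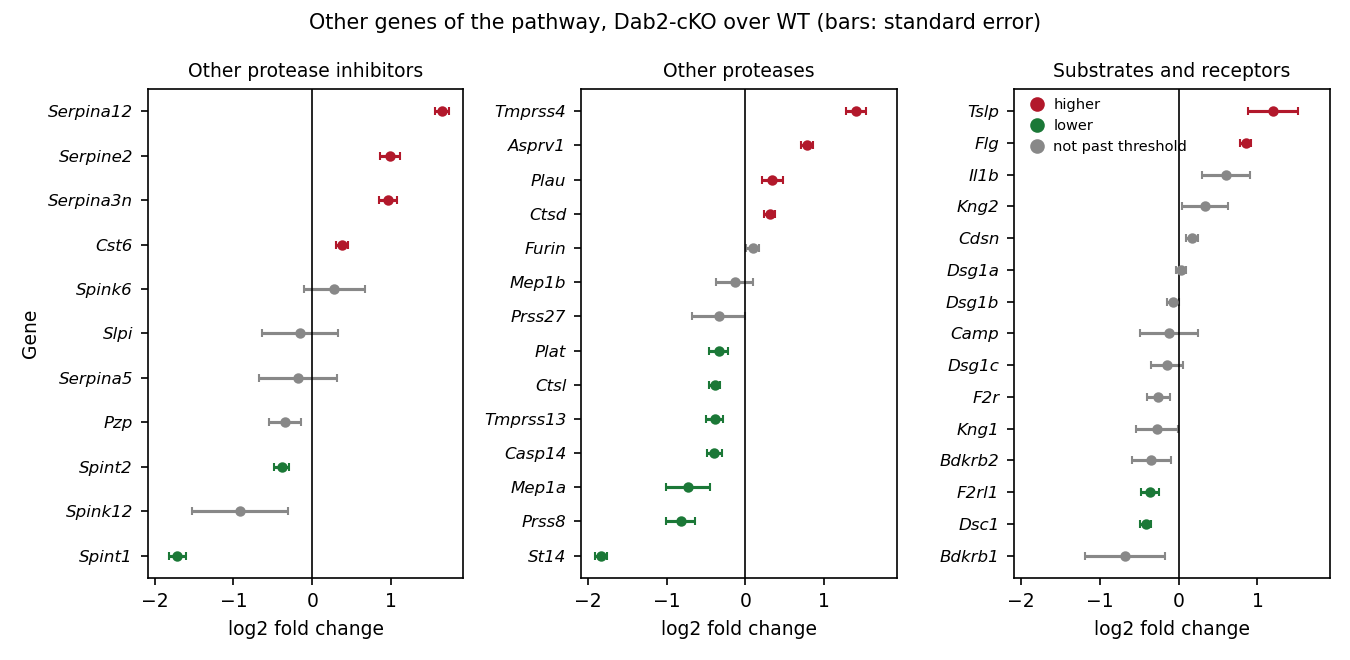
log2 fold change with its standard error, libraries labelled Dab2-cKO over WT, of the other protease inhibitors, the other proteases, and the substrates and receptors of kallikreins, with genes past an adjusted p of 0.05 in red (higher) or green (lower). Spint1 at -1.71 and St14 at -1.83 lie lowest among the genes that passed, and Serpina12 at 1.64 highest, and all the genes drawn as higher turned to lower values under scaling to Krt10 and Krt1.

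Markers of other parts of the skin moved beside these genes, where 16.8% of all genes tested rose and 11.5% fell. Of 8 upper hair follicle markers, 5 rose and 3 fell (median log2 fold change 0.43), and of 10 sebaceous gland markers, 9 rose and 1 did not pass (median 1.58), from 0.112% to 0.119% of counts in WT to 0.265% to 0.277% in the libraries labelled Dab2-cKO. Of 5 companion layer markers, 1 rose and 2 fell, and of 11 bulge markers, 7 rose and 4 fell. The 4 skeletal muscle markers rose, from 0.213% to 0.226% of counts to 0.813% to 0.855%, as did the 5 endothelial and the 4 adipocyte markers and 7 of 8 immune markers, whereas the 5 melanocyte markers fell. None of these markers was at 0 in all libraries. Mitochondrial genes took 12.99% to 14.45% of counts in WT and 19.1% to 20.3% in the libraries labelled Dab2-cKO. The part of any of these in the values of the kallikreins was not tested.

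The genes whose pattern over the 6 libraries was most like that of Spink5, by the root mean square difference of centred log2 normalized counts over 10845 genes, were Serinc3 (0.0291), Mboat2 (0.0314) and Abi3bp (0.0328). Those most like Klk7 were Jag2 (0.0236), Ranbp2 (0.0321) and Rabggta (0.0334). The log2 fold changes of the Spink5 neighbours were 1.33, 1.29 and 1.26, against 1.31 for Spink5. Those of the Klk7 neighbours were -0.29, -0.28 and -0.30, against -0.26 for Klk7. For both, the measure thus mainly found genes with a change of like size. The genes most like Klk1 were Gm15772 (0.373), Ifit3 (0.396) and Ifit1 (0.542), which lay farther off than the neighbours of Spink5 and Klk7 on the same log2 scale. Klk1 differed far more between the groups than within them, so this measure mainly found genes with a rise of like size. Their log2 fold changes were 5.97, 5.02 and 5.14, against 5.48 for Klk1. That value chose Klk1, so its neighbours are a description only.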

How the data were processed

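RNA of sorted HFSCs (3 WT and 3 Dab2-cKO samples) was sequenced as total RNA. Per the submitters' processing notes and methods, the authors trimmed reads with fastp 0.23.4, aligned them to GRCm39 with HISAT2 2.2.1 and counted them per gene with featureCounts 2.0.6, and the deposited table holds raw counts without normalization. Annotation release, strand setting and handling of multimapping reads are not given in the sources used here. A deposited table of the authors' own DESeq2 comparison was not used. Columns named FL-FL were assigned to Dab2-cKO from the series title. The labels call the replicates biological without naming animals, so p-values measure the spread between these libraries.

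From the counts, edgeR 4.0.16 (R 4.3.3) filtered genes by its expression filter, leaving 32149 of 56941, scaled by TMM and compared the groups by a robust two-sided quasi-likelihood test with Benjamini-Hochberg adjustment over all genes kept. The threshold was an adjusted p of 0.05. The members and lists were chosen with earlier results of these data known, so no list was tested. Named genes were the 10 members, Dab2, other tested kallikreins, and up to 6 called genes of largest mean in each pathway list; exceptions are stated. Sequences and lengths came from GENCODE M39 on GRCm39, with 56323 table identifiers matched, and alignments from Biopython 1.88. The fit was also run on counts simulated from its own means, dispersions and library scaling, with equal numbers of genes raised and lowered. Such counts cannot show whether the scaling or the model is right for these data. All replicate pairs differed by more than counting noise, which does not show that they came from separate animals. Each library was counted as 1 replicate. Alternatives were DESeq2 1.42.0, other scalings and filters, a replicate block, and leaving out each library.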

Additional observations from a re-analysis of the deposited data

How the results depend on the processing

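The number of called kallikreins and Spink5 stayed between 3 and 5 lower and between 2 and 4 higher under all alternatives run, and the calls that changed were those of Klk8, Klk11, Klk13 and Klk14 given above. With library size only, the median log2 fold change of all genes moved to -0.45, and with upper-quartile scaling to -0.17. Genes called lower in all then rose from 3682 to 11168 with library size only and to 5561 with upper-quartile scaling, and genes called higher fell from 5387 to 2686 with library size only. The share of called genes that were higher was 59.4% in the reported fit, 43.5% with upper-quartile scaling and 19.4% with library size only. In the 4 pathway lists, the genes called lower went from 11 to 22 with library size only. Scaling to keratins, chosen after seeing the data and without a test, turned the log2 fold changes of Klk8 and Klk11 to -0.15 and -0.29 with Krt14 and Krt5, and those of Klk5, Klk8, Klk11 and Spink5 to -1.78, -1.97, -2.11 and -1.25 with Krt10 and Krt1. No pairing by replicate number was evident, as the deviations of same-numbered libraries correlated at 0.135, -0.05 and 0.10, and those of the other pairs at -0.19 to 0.11. With 3 libraries per group, these values depend on each other and cannot exclude pairing. With the replicate number as a block, 3620 genes were lower and 5347 higher, and 4 of the 9 tested kallikreins and Spink5 were lower and 3 higher. Low counts limit Klk13, Klk14 and the Klk1b genes, and Klk14 was filtered out at a mean count of at least 50.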
